A study of Mus musculus with 8 samples.

Results

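Hippocampal zinc handling was described through 10 genes, 4 ZIP transporters (Slc39a12, Slc39a8, Slc39a10 and Slc39a14), 3 ZnT transporters (Slc30a1, Slc30a3 and Slc30a10) and 3 metallothioneins (Mt1, Mt2 and Mt3), among 29442 genes in the count table, of which 27612 were tested. The genes were selected by symbol. Slc39a12 was chosen by its difference between the groups, since it had the smallest p of all tested genes, and the other 9 were added around it as members of the same families. The DHEA against sesame oil values of the 10 genes are therefore given as a description without a test. All 10 passed the filter of at least 1 count, with mean counts from 191.9 for Slc39a8 to 7238 for Slc39a10.

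The RNA came from hippocampus (ventral hippocampus in the methods) of female C57BL/6 J mice 6 to 8 weeks old at the start. 4 libraries came from mice given dehydroepiandrosterone (DHEA), an adrenal steroid and androgen precursor, subcutaneously at 30 mg/kg/day for 21 days in sesame oil, and 4 from mice given sesame oil alone. By the study's methods, mice of both groups went through open field, forced swim and tail suspension tests before the tissue was taken. The part of these tests in the RNA values was not tested. No gene was altered in either group, and the labels name no batch. The design text counts 6 tissues where 8 samples are given, and replicate 4 of each group belongs to a separate, later run of sample numbers, so that results are also given for the 6 libraries of the first run. What set the later 2 apart is not stated in the sources used here. The library totals were 35748416 to 38038361 counts for DHEA and 31483772 to 35418297 counts for sesame oil, so that every library labelled DHEA was deeper. Groups and directions follow the deposited labels. The published list of differentially expressed genes is signed the other way, and which of the 2 is right could not be told from the files. The study also measured some genes by qRT-PCR in additional hippocampal samples. It reports the same directions there as in its own RNA sequencing results, so that those measures go with the published sign. They were not compared with these counts here. Every direction given here would be reversed if the deposited labels were swapped. In bulk tissue, fewer cells of a type and less RNA per cell cannot be told apart.

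ZIP proteins carry zinc into the cytosol, from outside the cell or from organelles, and ZnT proteins carry it out of the cytosol or into vesicles. Metallothioneins are small cysteine-rich proteins that bind zinc, and the factor MTF-1 senses free zinc and switches on Mt1, Mt2 and Slc30a1 through metal response elements. In hippocampus, ZnT3 (Slc30a3) loads zinc into the synaptic vesicles of glutamatergic neurons, above all those of the mossy fibres of dentate granule cells.

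The promoters of the best known MTF-1 targets are shown beside those of Slc39a12 and Mt3 so that the metal response element core can be seen where it occurs. Each window runs from 250 bases before to 30 bases after the RefSeq start site (280 bases, GRCm38.p6), 5′ to 3′ on the gene's strand. The capitals mark every match to the core TGCACNC or TGCGCNC on either strand, with overlapping matches allowed.
Mt1 (chr8:94178839-94179118, plus strand): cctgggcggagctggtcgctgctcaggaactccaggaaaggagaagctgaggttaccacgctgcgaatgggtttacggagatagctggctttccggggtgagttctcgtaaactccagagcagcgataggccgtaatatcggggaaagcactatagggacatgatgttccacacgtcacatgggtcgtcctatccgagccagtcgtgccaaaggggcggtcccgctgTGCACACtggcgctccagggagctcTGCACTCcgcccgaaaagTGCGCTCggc
Mt2 (chr8:94172368-94172647, plus strand): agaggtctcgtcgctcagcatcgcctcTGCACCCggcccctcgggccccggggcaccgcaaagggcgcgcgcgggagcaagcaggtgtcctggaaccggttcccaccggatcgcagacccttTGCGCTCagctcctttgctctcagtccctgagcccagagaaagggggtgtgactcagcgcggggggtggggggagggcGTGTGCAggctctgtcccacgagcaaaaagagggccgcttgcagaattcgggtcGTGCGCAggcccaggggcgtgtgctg
Mt3 (chr8:94152357-94152636, plus strand): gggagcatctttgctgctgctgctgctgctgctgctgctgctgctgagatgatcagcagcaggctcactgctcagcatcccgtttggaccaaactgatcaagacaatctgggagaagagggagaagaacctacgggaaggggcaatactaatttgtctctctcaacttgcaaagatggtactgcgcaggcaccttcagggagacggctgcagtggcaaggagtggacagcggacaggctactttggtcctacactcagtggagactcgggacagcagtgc
Slc30a1 (chr1:191906531-191906810, plus strand): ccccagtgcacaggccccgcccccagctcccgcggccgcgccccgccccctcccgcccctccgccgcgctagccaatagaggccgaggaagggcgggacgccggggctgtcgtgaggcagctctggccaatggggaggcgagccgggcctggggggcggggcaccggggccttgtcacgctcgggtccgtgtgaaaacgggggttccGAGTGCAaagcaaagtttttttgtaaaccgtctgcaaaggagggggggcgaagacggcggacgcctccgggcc
Slc39a12 (chr2:14388148-14388427, plus strand): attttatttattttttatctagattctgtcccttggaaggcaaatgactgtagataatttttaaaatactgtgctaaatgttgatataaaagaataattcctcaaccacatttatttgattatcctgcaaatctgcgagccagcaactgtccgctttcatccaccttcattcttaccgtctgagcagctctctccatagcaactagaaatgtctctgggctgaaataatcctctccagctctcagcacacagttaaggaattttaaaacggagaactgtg

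Of 32851 RefSeq promoters of the same length, 24.1% held at least 1 match, 6.37% at least 2 and 1.73% at least 3. Mt2 had 4 matches, which began at positions -223, -128, -50 and 5 from the start site, and Mt1 had 3, at -23, 3 and 21. Slc30a1 had 1 match, at -43. Slc30a10, a manganese exporter of the ZnT family, had 3 matches in its window, at -233, -232 and -73, of which the first and the second overlap. Mt3 and Slc39a12 had 0 matches, as did both start sites of Slc39a10 and the first of Slc39a8 and of Slc30a3. The second start site of Slc39a8 held 1 match at -19, and that of Slc30a3 held 1 at -77. Slc39a14 was not searched. The start sites of Mt3, Mt2 and Mt1 lie in this order within 26482 bases of chromosome 8, with 6471 bases between those of Mt2 and Mt1. Bases outside the window were not searched, so that further matches beyond it, on either side, are not counted. Positions refer to the RefSeq start sites, and whether transcription in these samples starts there was not tested. A match to 7 letters is a description of the sequence and not a bound site.

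Slc39a12 was higher in the libraries labelled DHEA, with no overlap, and it was the only gene of the 10 whose groups did not overlap. Slc39a12 encodes ZIP12, a zinc importer of the brain. Values are counts per 1000000 counts of the library after TMM scaling (CPM), in which 3 counts equal 0.0808 to 0.0952 CPM. Replicates 1 to 4 labelled DHEA had 70.9, 69.8, 65.3 and 68.5 CPM of Slc39a12, and replicates 1 to 4 labelled sesame oil had 50.1, 51.8, 52.6 and 48.1 CPM. The lowest library labelled DHEA was thus above the highest labelled sesame oil, and the spread within each group was small beside the gap. The means were 68.6 ± 2.39 CPM (SD, n = 4) for DHEA and 50.7 ± 1.98 CPM (SD, n = 4) for sesame oil, and the log2 fold change was 0.44 with a standard error of 0.06, a mean 35.4% higher. Across the table, 2.42% of tested genes were higher in DHEA without overlap and 2.62% were lower without overlap. By size of log2 fold change, Slc39a12 stood 274th among the 12780 genes averaging 100 counts or more, so that its place rests on the small spread more than on a large change. With each library left out in turn, its log2 fold change ran from 0.41 to 0.46.

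**Figure D1:**
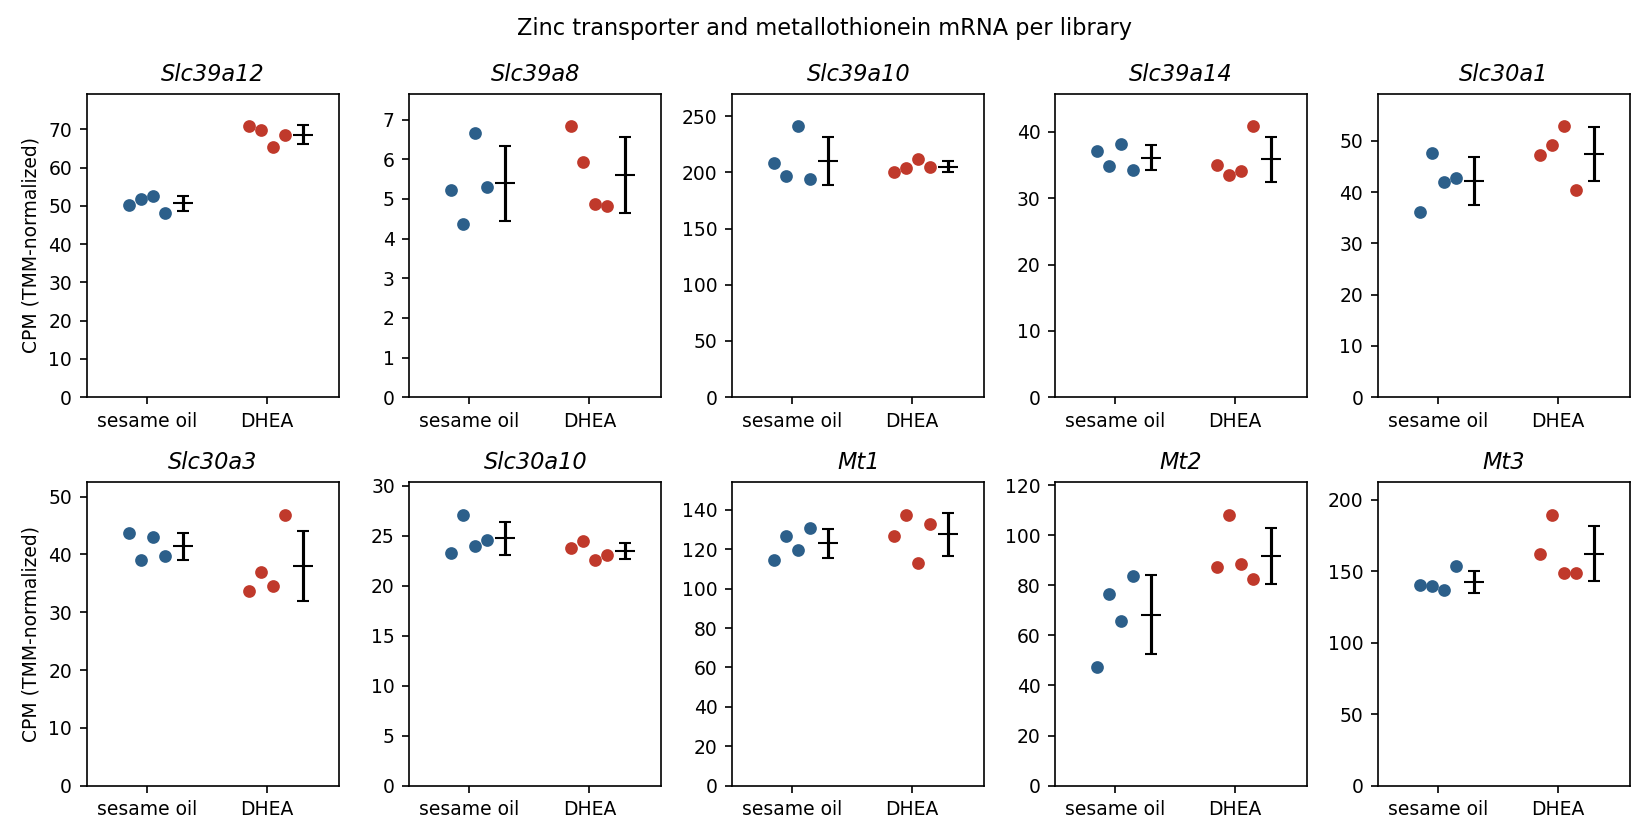
TMM-normalized CPM (vertical axes, from 0) of the 10 genes in the 4 libraries labelled sesame oil (blue) and the 4 labelled DHEA (red), 1 point per library, with mean and SD as black bars. The groups are apart for Slc39a12 (48.1 to 52.6 against 65.3 to 70.9 CPM) and overlap for the other 9 genes, Mt2 by 1 library on each side.

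The other 3 ZIP transporters had log2 fold changes near 0. Slc39a10, which encodes a zinc importer of the plasma membrane, had 200.1, 204, 212 and 205 CPM in replicates 1 to 4 labelled DHEA and 208, 197, 241 and 194 CPM in those labelled sesame oil. The DHEA libraries fell inside the range of the sesame oil libraries, of which replicate 3 was the highest, and the log2 fold change was -0.03 with a standard error of 0.07. Slc39a14, which carries zinc, manganese and iron, had 35.0, 33.5, 34.1 and 40.9 CPM in the DHEA libraries and 37.1, 34.8, 38.2 and 34.3 CPM in the sesame oil libraries. Its log2 fold change was -0.01 with a standard error of 0.08. Slc39a8, which also carries zinc and manganese, was the lowest of the 10 genes, at 6.84, 5.92, 4.88 and 4.82 CPM in the DHEA libraries and 5.22, 4.37, 6.66 and 5.31 CPM in the sesame oil libraries. The libraries of both groups were interleaved, and its log2 fold change of 0.06 had a standard error of 0.17, the widest of the 10. With 1 library left out, the log2 fold change ran from -0.07 to 0.03 for Slc39a10 (positive without sesame oil replicate 3), from -0.08 (without DHEA replicate 4) to 0.02 (without DHEA replicate 2) for Slc39a14 and from -0.05 (without DHEA replicate 1) to 0.17 (without sesame oil replicate 3) for Slc39a8.

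The 3 ZnT transporters had small log2 fold changes of both signs. Slc30a1, the plasma membrane exporter that MTF-1 induces, had 47.1, 49.2, 52.9 and 40.4 CPM in replicates 1 to 4 labelled DHEA and 36.2, 47.6, 41.9 and 42.7 CPM in those labelled sesame oil. DHEA replicate 4 lay below 3 of the 4 sesame oil libraries, and the log2 fold change was 0.17 with a standard error of 0.09, and 0.10 without sesame oil replicate 1. Slc30a3 had 33.7, 37.0, 34.6 and 46.9 CPM in the DHEA libraries and 43.7, 39.1, 43.1 and 39.7 CPM in the sesame oil libraries. DHEA replicate 4 was the highest of all 8 libraries and the other 3 were the lowest, so that the log2 fold change of -0.12 (standard error 0.09) became -0.24 without that library and -0.07 without DHEA replicate 1. Slc30a10 had 23.8, 24.5, 22.6 and 23.1 CPM in the DHEA libraries and 23.3, 27.1, 24.0 and 24.6 CPM in the sesame oil libraries, with a log2 fold change of -0.08 and a standard error of 0.08, and -0.03 without sesame oil replicate 2.

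The 3 metallothioneins had positive log2 fold changes of unequal size (that of Mt1 was negative relative to the astrocyte list described further on), and the groups overlapped for each. Mt2 had 87.4, 108, 88.5 and 82.5 CPM in replicates 1 to 4 labelled DHEA and 47.3, 76.5, 65.8 and 83.5 CPM in those labelled sesame oil. Sesame oil replicate 1 was the lowest library by a wide gap, while sesame oil replicate 4 lay just above DHEA replicate 4. The means were 91.7 ± 11.3 CPM (SD, n = 4) and 68.3 ± 15.8 CPM (SD, n = 4), and the log2 fold change was 0.43 with a standard error of 0.13. Without sesame oil replicate 1 it was 0.28. Mt1 had 127, 138, 113 and 133 CPM in the DHEA libraries and 114, 127, 120 and 131 CPM in the sesame oil libraries. Its lowest library was DHEA replicate 3 and its log2 fold change was 0.05 with a standard error of 0.07, from 0.01 without DHEA replicate 2 to 0.11 without DHEA replicate 3. Mt3, the metallothionein enriched in brain, had 162, 190, 149 and 149 CPM in the DHEA libraries and 140, 139, 137 and 154 CPM in the sesame oil libraries. DHEA replicate 2 stood above the rest, and the log2 fold change of 0.19 (standard error 0.08) was 0.10 without it. The CPM ratio of Mt2 to Mt1 was 0.689, 0.787, 0.784 and 0.622 in the DHEA libraries and 0.413, 0.604, 0.549 and 0.638 in the sesame oil libraries, so that these neighbouring genes did not keep a fixed ratio across libraries. Mt1 and Mt2 are close paralogs, and how reads that fit both were counted is not stated.

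Of the 10 genes, 6 had a log2 fold change above 0, with a median of 0.06, against 51.2% above 0 and a median of 0.01 for all tested genes. The median absolute log2 fold change of the 10 was 0.0982, the same as the 0.0982 of the 12780 genes averaging 100 counts or more. Apart from Slc39a12 and Mt2, the log2 fold changes lay between -0.12 and 0.19.

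In the 6 libraries of the first run of sample numbers (replicates 1 to 3 of each group), a choice made after the data were seen, the log2 fold change of Slc39a12 was 0.41. It was 0.58 for Mt2, 0.27 for Mt3, 0.25 for Slc30a1 and -0.26 for Slc30a3, each farther from 0 than with all 8 libraries. Mt2 and Mt3 (higher in DHEA) and Slc30a3 (lower in DHEA) had no overlap in these 6 libraries, so that their overlap came from the replicates numbered 4. With 3 against 3 libraries, 7.01% of all tested genes were higher and 6.47% lower without overlap. The other 5 log2 fold changes lay between -0.10 (Slc39a14) and 0.12 (Slc39a8), with overlap.

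The other genes of zinc handling were 22 in number, namely 10 ZIP transporters, 7 ZnT transporters and Mt4, Mtf1, Gpr39, Tmem163 and Ap3d1. Of them, 17 averaged 10 counts or more. In edgeR's quasi-likelihood test none of the 22 had a Benjamini-Hochberg adjusted p under 0.05 (0 of 22, the smallest adjusted p being 0.306), which sits beside 0.0% of all tested genes. DESeq2 gave an adjusted p to 16 of the 22, of which 0 were under 0.05, beside 1.21% of the 12623 genes to which it gave one. At an unadjusted p under 0.05, 0 of the 22 were higher and 2 lower, against 4.82% higher and 4.49% lower of all tested genes and 9.31% in both directions.

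Those 2 genes were Slc39a2 and Ap3d1, and both had groups that did not overlap, beside 2.62% of all tested genes that were lower without overlap. Slc39a2, a ZIP transporter best known from skin, had 3.15, 4.01, 8.79 and 8.79 CPM in replicates 1 to 4 labelled DHEA and 12.7, 9.67, 10.9 and 9.84 CPM in those labelled sesame oil. The 2 lowest libraries were DHEA replicates 1 and 2, and the other 2 DHEA libraries lay just under the sesame oil libraries. Its log2 fold change was -0.80 with a standard error of 0.25 (edgeR's quasi-likelihood test, unadjusted p = 0.0045, Benjamini-Hochberg adjusted p = 0.306, lower in 4 of 4 libraries), which is a result that fails the correction. Slc39a2 overlaps Mettl17 on the same strand in the annotation, so that its counts are uncertain. Ap3d1, a subunit of the AP-3 adaptor that sorts ZnT3 to synaptic vesicles, had 151, 136, 156 and 152 CPM in the DHEA libraries and 169.5, 167, 169.6 and 159.7 CPM in the sesame oil libraries. DHEA replicate 2 was the lowest library, and the highest DHEA library was just under the lowest sesame oil library. The log2 fold change was -0.16 with a standard error of 0.06 (edgeR's quasi-likelihood test, unadjusted p = 0.0146, adjusted p = 0.407, lower in 4 of 4 libraries), which also fails the correction.

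Among the remaining transporters, the 7 further ZnT genes all had positive log2 fold changes, with a median of 0.15, while the 10 further ZIP genes had 5 above 0 and a median of 0.00. Of the ZnT genes, Slc30a2 and Slc30a8 had almost no counts, and none of the 7 had an unadjusted p under 0.05. Slc30a4, a transporter of endosomes and lysosomes, had 77.1 ± 4.29 CPM (SD, n = 4) in DHEA and 69.2 ± 7.15 CPM (SD, n = 4) in sesame oil. Slc30a5 and Slc30a6, whose proteins pair in the early secretory pathway, had log2 fold changes of 0.13 and 0.15 with standard errors of 0.07 and 0.11. Mtf1 itself had a log2 fold change of 0.11 with a standard error of 0.08. Slc39a4 had the widest relative spread among genes averaging 10 counts or more, from 0.841 to 3.47 CPM in the DHEA libraries. Mt4 had a single count in all 8 libraries together.

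**Figure D2:**
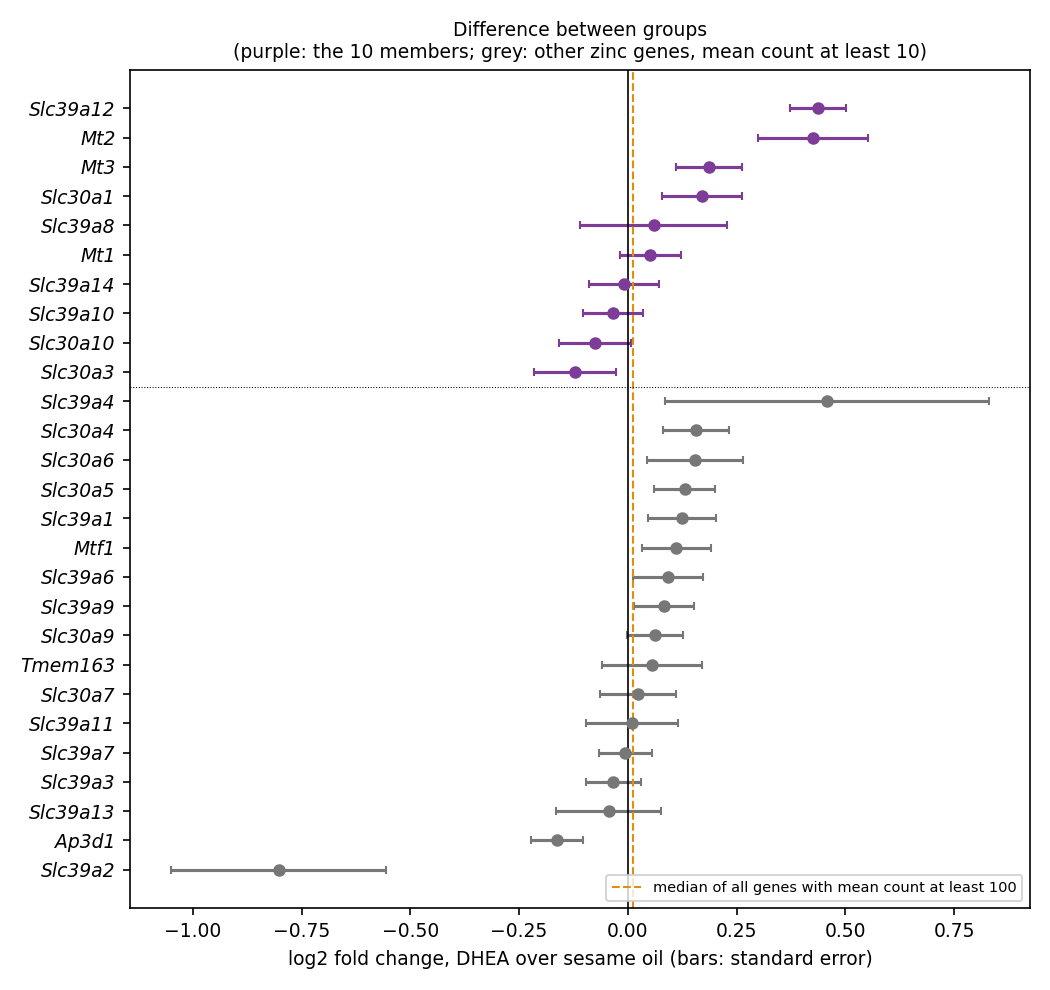
Log2 fold change of the libraries labelled DHEA over sesame oil (horizontal axis) for the 10 genes (purple) and for the 17 other zinc genes averaging 10 counts or more (grey), with standard errors as bars, a solid line at 0 and a dashed line at the median of genes averaging 100 counts or more. Slc39a12 (0.44) and Mt2 (0.43) lie highest of the 10, and Slc39a2 (-0.80) lies lowest of all.

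Levels per length, in fragments per kilobase of gene scaled to library total (FPKM), placed the metallothioneins far above the transporters. Mt3 had a mean of 283 FPKM (range over 8 libraries 254 to 342), Mt2 144 FPKM (86.0 to 189) and Mt1 99.5 FPKM (90.5 to 106). Every library of Mt3 was above every library of Mt2, whereas the ranges of Mt2 and Mt1 overlapped. Slc39a12 followed at 21.6 FPKM (17.8 to 25.1) and Slc30a3 at 17.1 FPKM (14.2 to 20.3), with overlapping ranges. Slc39a10 had 13.0 FPKM (12.2 to 15.1), which overlapped Slc30a3, and Slc30a1 had 8.34 FPKM (6.82 to 9.95), which did not overlap Slc39a10. Slc30a10 at 4.14 FPKM (3.90 to 4.68) and Slc39a14 at 3.52 FPKM (3.17 to 4.04) overlapped each other. Slc39a8 was lowest, at 0.685 FPKM (0.549 to 0.832), below every library of the other 9. Among the other 17 zinc transporters Slc30a9 was the most abundant, at 45.1 FPKM, above every one of the 7 transporters described here.

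The order depends on the gene length used by the authors. The deposited FPKM implies 1258 bases for Mt1 and 15974 bases for Slc39a10, where the principal GENCODE transcripts have 549 and 5498 bases. It likewise implies 10218 bases for Slc39a14 and 8023 bases for Slc39a8, against 4926 and 3533. Even the longest GENCODE transcripts were shorter, at 1085 bases for Mt1, 5498 for Slc39a10, 5117 for Slc39a14 and 4212 for Slc39a8. The counts of these genes may thus cover more bases than the principal transcript, and dividing by it would then raise them. Divided by the principal transcript instead, Mt1 had 228 CPM per kilobase (206 to 251) and Mt2 156 CPM per kilobase (92.5 to 212), so that Mt1 came above Mt2 in mean, with ranges that still overlapped. Slc39a10 then had 37.8 CPM per kilobase and lay above Slc39a12 at 22.3 CPM per kilobase, which reverses their order. Slc39a14 had 7.30 CPM per kilobase (6.79 to 8.30) and lay above Slc30a10 at 4.14 (3.87 to 4.65) without overlap, the reverse of their order in FPKM. Slc39a8 had 1.56 CPM per kilobase (1.24 to 1.94). The places of Mt3 first and Slc39a8 last were the same on both scales.

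**Figure D3:**
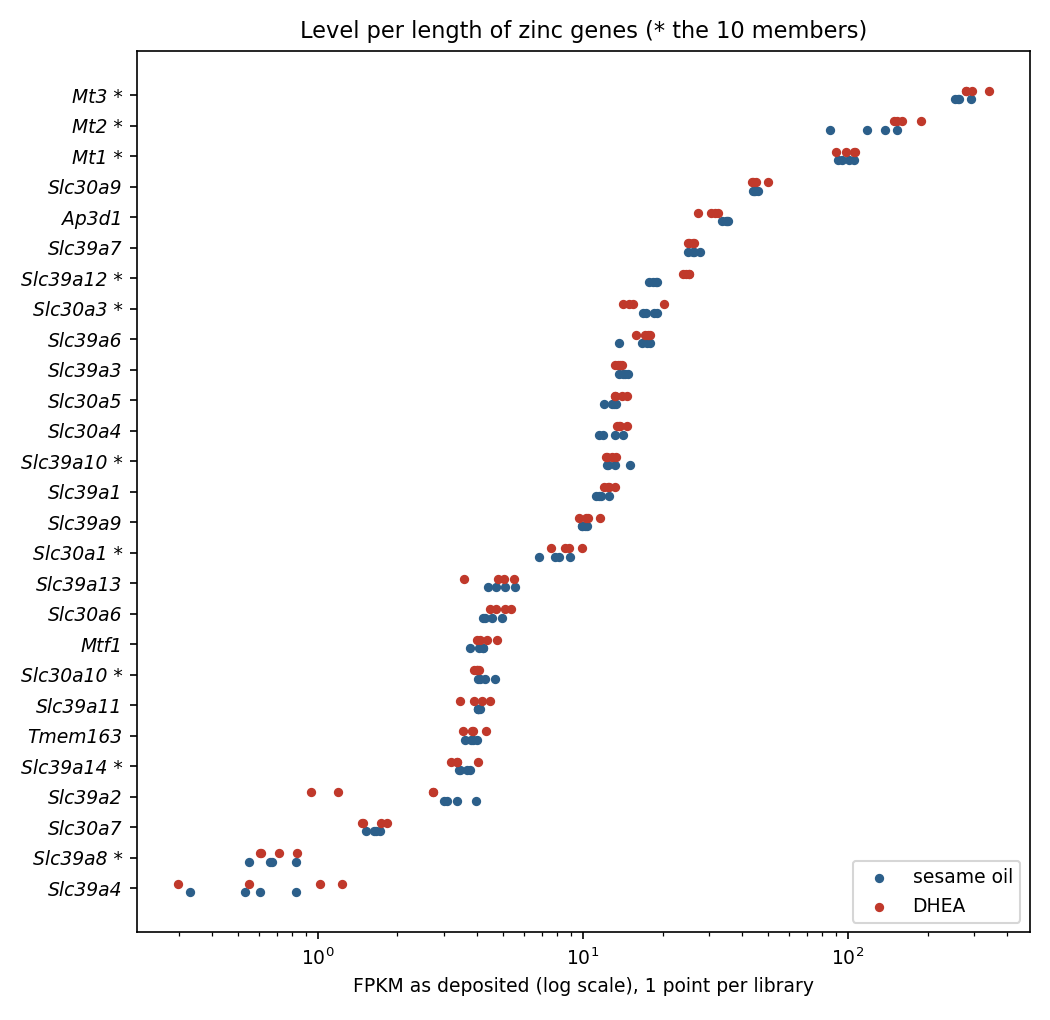
Deposited FPKM (horizontal axis, log scale) of the zinc genes that had a value above 0 in all 8 libraries, 1 point per library, sesame oil in blue and DHEA in red, with the 10 genes starred. The 3 metallothioneins lie highest (86.0 to 342 FPKM), and Slc39a8 (0.549 to 0.832 FPKM) lies near the bottom, beside Slc39a4.

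Marker genes of several glial cell types also had values above 0 for the log2 fold change, which stand here beside those of Slc39a12. All 10 astrocyte markers (the most abundant was Slc1a2) had log2 fold changes above 0, with a median of 0.18, and 7 of the 10 were higher by the unadjusted p of edgeR's test (4.82% of all tested genes), 0 by the adjusted p. The mean log2 CPM of the astrocyte list was 7.76, 7.94, 7.79 and 7.85 in replicates 1 to 4 labelled DHEA and 7.59, 7.63, 7.67 and 7.75 in those labelled sesame oil. The list summed to 6174, 7345, 6589 and 6539 CPM in the DHEA libraries and to 5450.4, 5789, 6067 and 6270.5 CPM in the sesame oil libraries. The log2 means did not overlap, by a narrow margin between DHEA replicate 1 and sesame oil replicate 4, whereas the sums overlapped, with sesame oil replicate 4 above DHEA replicate 1. All astrocyte markers were detected in every library, with at least 1036 counts.

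Taken relative to the mean of the astrocyte list, a scale chosen after the data were seen, Slc39a12 ran from -1.80 to -1.61 in the DHEA libraries and from -2.15 to -1.92 in the sesame oil libraries, a difference of 0.26 on the log2 scale against 0.44 before. These are the values that chose the gene on another scale, and they are given as a description. On the same scale Slc30a3 differed by -0.31, the largest size of the 10, Slc39a10 by -0.20, Slc39a14 by -0.19, Slc39a8 by -0.12, Slc30a1 by -0.01, Mt2 by 0.27 and Mt3 by 0.01, all with overlap. Mt1 differed by -0.12 and Slc30a10 by -0.25, both lower in the DHEA libraries without overlap. Subtracting a list that was higher in DHEA lowers every gene, and on this scale 23.4% of all tested genes were lower and 0.156% higher without overlap, so that the values of Mt1 and Slc30a10 are no result about these genes. Within groups, after the group means were removed, Slc39a12 and the astrocyte list had Pearson's r = -0.18 and Spearman's rho = -0.19 over 8 libraries. Without DHEA replicate 3 and sesame oil replicate 4 the r was 0.08, and with 1 library left out it ran from -0.46 (without DHEA replicate 3) to 0.33 (without sesame oil replicate 4). On log2(FPKM + 0.1) the r was -0.43. With the group means left in it was 0.77, a value that the difference which chose the gene enters. The small spread of Slc39a12 within groups entered its choice, so that these correlations are given with no test. The part of astrocyte RNA in the difference of Slc39a12 was not tested beyond these values.

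Of the other cell types, all 6 oligodendrocyte markers (the most abundant was Mbp) were above 0 with a median of 0.39, and 6 of 6 were higher by the unadjusted p, beside the same 4.82% of all tested genes. That list summed to 6163, 7802, 6087 and 6283 CPM in the DHEA libraries and to 4933, 4908.5, 4159 and 5931 CPM in the sesame oil libraries, of which replicate 4 came near the DHEA libraries and the other 3 lay below. All 6 microglia markers were above 0 with a median of 0.18, and 3 of 6 were higher by the unadjusted p, beside the same 4.82%. The medians were -0.01 for 6 excitatory neuron markers, 0.06 for 6 dentate granule markers, 0.21 for 6 thalamic markers and 0.02 for 7 meningeal markers. By the unadjusted p, 2 of the 6 dentate granule markers were higher and 1 lower, with log2 fold changes from -0.44 to 0.44. Of the thalamic markers 1 was higher, and of the excitatory neuron and meningeal markers 0 were under 0.05. These counts stand beside 4.82% higher and 4.49% lower of all tested genes. Of 6 endothelial markers (median 0.25), 4 were above 0 and 3 were higher by the unadjusted p, again beside 4.82%. The most abundant of them, Flt1, had a log2 fold change of -0.06, and its groups overlapped. Slco1a4 and Ly6c1, named after their values were seen, did not overlap between the groups, beside 2.42% of all tested genes. All of these markers were detected in all 8 libraries. None of these lists held a gene with an adjusted p under 0.05 in edgeR's test. By DESeq2, Slco1a4 and Ly6c1 had one (DESeq2 adjusted p = 0.021 and 0.0198), as did 1 of the 6 oligodendrocyte markers, beside 1.21% of genes called by DESeq2. The part of these cell types in the values of the zinc genes was not tested.

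Choroid plexus markers were uneven across libraries, and all 6 had log2 fold changes above 0 (median 0.45) with 0 of 6 under an unadjusted p of 0.05. The 6 summed to 4493, 93.9, 2213 and 4158 CPM in replicates 1 to 4 labelled DHEA and to 3137, 2041, 2273 and 511.7 CPM in those labelled sesame oil. Their most abundant marker, Ttr, had 4015, 60.4, 1963 and 3748 CPM in replicates 1 to 4 labelled DHEA and 2834, 1809, 2013 and 432.7 CPM in those labelled sesame oil. DHEA replicate 2 was thus almost without these markers, and there Slc39a12 was at 69.8 CPM, inside the range of the other 3 DHEA libraries. Without DHEA replicate 2 the log2 fold change of Slc39a12 was 0.42. These are values of the gene that was chosen by its difference, and the part of choroid plexus RNA in them was not tested.

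**Figure D4:**
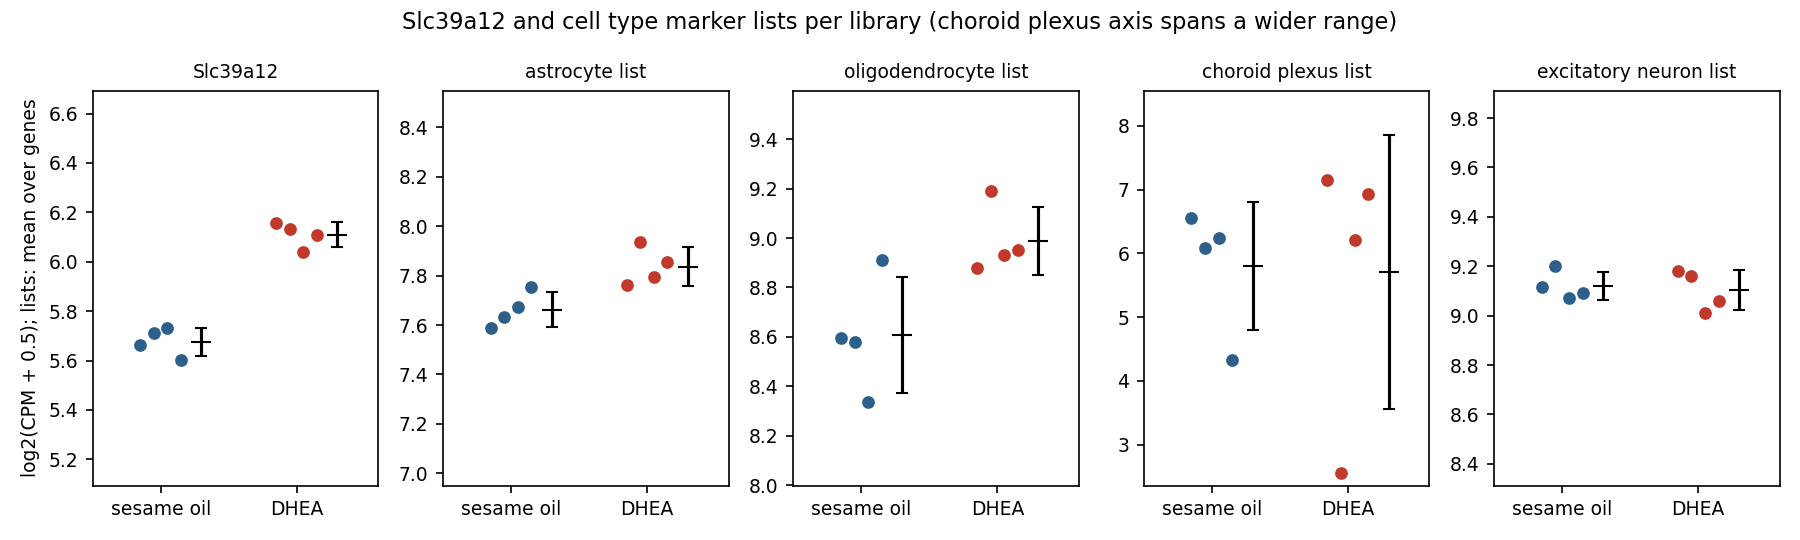
Log2(CPM + 0.5) of Slc39a12 and the mean over genes of the astrocyte, oligodendrocyte, choroid plexus and excitatory neuron lists (vertical axes) per library, sesame oil in blue and DHEA in red, with mean and SD as black bars. Slc39a12 and the astrocyte list (7.59 to 7.75 against 7.76 to 7.94) do not overlap between groups, while DHEA replicate 2 lies far below the other libraries for choroid plexus.

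Whether genes of the same system varied together was examined within groups, which the difference between the group means does not enter. For 9 pairs, the deviation of log2(CPM + 0.5) from the group mean was correlated over the 8 libraries, with, for the 8 pairs without Slc39a12, two-sided exact permutation tests over all pairings of libraries within groups, for which the smallest p is 0.00174. The 3 metallothionein pairs had the highest correlations of the 9, and none of the 8 pairs given with a test passed after Benjamini-Hochberg adjustment over all 9. The adjustment also took in the p of the Slc39a12 pair, which is not given because of how that gene was chosen. Mt1 and Mt2 had r = 0.65 (permutation p = 0.0642, adjusted p = 0.398) and rho = 0.60 (permutation p = 0.142). Without the 2 libraries farthest from the median of Mt1 over the 8 deviations their r was 0.64, and the libraries farthest from the median of the first item were likewise left out for the other pairs. Mt1 and Mt3 had r = 0.65 (permutation p = 0.167, adjusted p = 0.5) and rho = 0.64 (permutation p = 0.158), with r = 0.66 without the 2 farthest libraries. Mt2 and Mt3 had r = 0.56 (permutation p = 0.0885, adjusted p = 0.398) and rho = 0.48 (permutation p = 0.238), with r = 0.76 without them. With 1 library left out, the r of these 3 pairs stayed above 0, from 0.55 to 0.91, 0.48 to 0.87 and 0.44 to 0.88. A relation of the metallothioneins within groups was therefore not shown beyond the spread of 8 libraries.

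The remaining pairs had correlations nearer 0 over all 8 libraries. Mt1 and Slc30a1, both MTF-1 targets, had r = -0.02 and rho = 0.05 (permutation p = 0.964 and 0.946, adjusted p of r = 0.988), and r = 0.05 without the 2 farthest libraries. This r ran from -0.43 without sesame oil replicate 1 to 0.58 without DHEA replicate 3. Mt1 and Slc39a14 had r = -0.05 and rho = -0.38 (permutation p = 0.941 and 0.434, adjusted p of r = 0.988), and r = -0.39 without the 2 farthest, with a range from -0.55 (without DHEA replicate 4) to 0.21 (without DHEA replicate 2) when 1 library was left out. Slc30a3 and the dentate granule list, whose cells send out the mossy fibres, had r = 0.00 and rho = -0.10 (permutation p = 0.988 and 0.826, adjusted p of r = 0.988), and r = -0.37 without the 2 farthest, with a range from -0.43 (without DHEA replicate 4) to 0.25 (without sesame oil replicate 3). The signs of these 3 correlations therefore changed with single libraries. Since glucocorticoids also induce metallothioneins, 11 corticosteroid-induced genes were compared as a list. Between the groups, 9 of the 11 had log2 fold changes above 0 (median 0.34), 6 of 11 were higher and 0 lower by the unadjusted p of edgeR's test (4.82% and 4.49% of all tested genes), and 0 by the adjusted p. By DESeq2 1 of the 11 passed, Pdk4 (adjusted p = 0.0132, groups without overlap, named after its values were seen), beside 1.21% of genes called by DESeq2 and 2.42% of tested genes higher without overlap. The list means were 4.50, 4.44, 4.52 and 5.33 in replicates 1 to 4 labelled DHEA and 4.41, 4.37, 4.44 and 4.34 in those labelled sesame oil, so that they did not overlap, by a margin that vanishes at this rounding. The list summed to 391.5, 367, 397 and 591.8 CPM in the DHEA libraries and to 389.9, 364, 412 and 359.9 CPM in the sesame oil libraries, where the groups overlapped, its most abundant gene was Zbtb16, and its part in the metallothionein values was not tested beyond the following correlations. Mt1 had r = 0.16 and rho = -0.21 with it (permutation p = 0.747 and 0.668, adjusted p of r = 0.988), and r = -0.05 without the 2 farthest. Leaving out 1 library moved this r from -0.86 (without DHEA replicate 4, which stands apart on the list) to 0.47 (without DHEA replicate 2), so that its sign rested on single libraries. Mt2 had r = -0.32 and rho = -0.43 with it (permutation p = 0.26 and 0.21, adjusted p of r = 0.586), and r = -0.55 without the 2 farthest, and from -0.69 (without DHEA replicate 4) to -0.19 (without DHEA replicate 2) with 1 library left out. With the group means left in, the r of Mt2 was 0.14, a value that the difference between the groups enters. DHEA replicate 4, in which this list was highest at a mean log2 CPM of 5.33 (4.44 to 4.52 in the other DHEA libraries), had 82.5 CPM of Mt2, the lowest of the DHEA libraries, and 133 CPM of Mt1, the second highest of them.

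**Figure D5:**
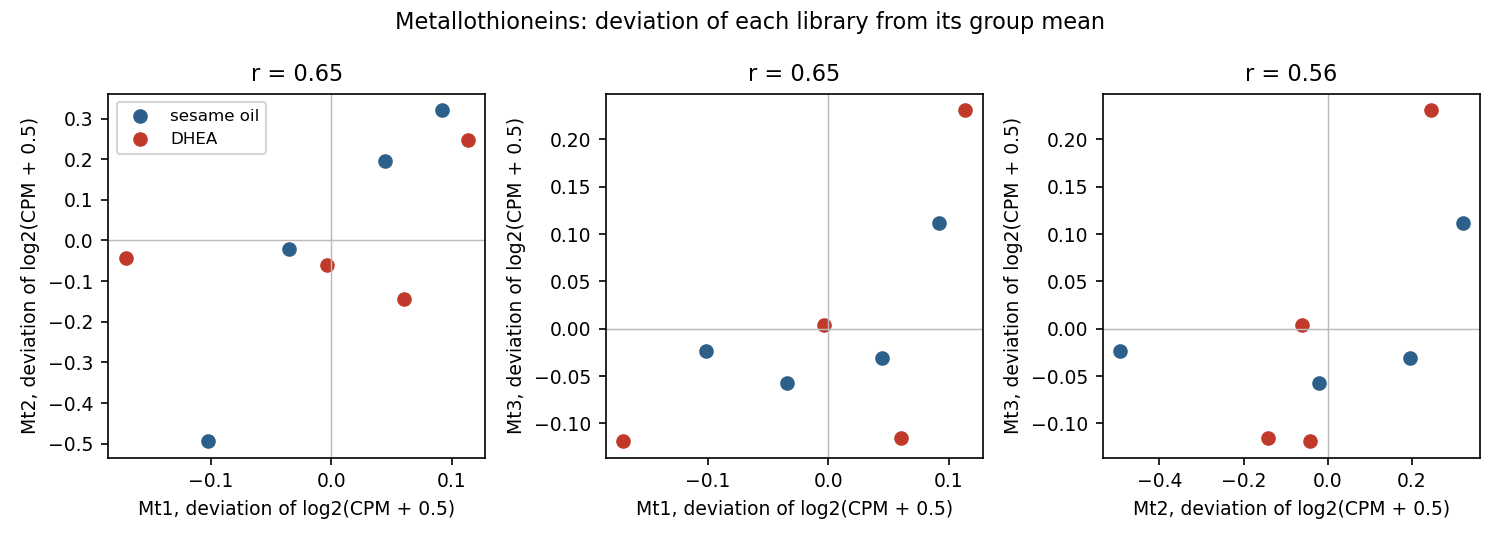
Deviation of log2(CPM + 0.5) from the group mean for Mt1 against Mt2, Mt1 against Mt3 and Mt2 against Mt3, 1 point per library, sesame oil in blue and DHEA in red. The points rise from lower left to upper right with r of 0.65, 0.65 and 0.56, and DHEA replicate 2 is at the top right or near it in each panel.

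By the same measure, the 5 genes most like Slc39a12 within groups, among 12780 genes averaging 100 counts or more and over 8 libraries, were Trp53i11 (r = 0.99), Fpgt (r = 0.98), Atl1 (r = 0.97), Insyn1 (r = 0.96) and Psme2b (r = 0.96). Those most like Mt1 were Cdc42ep4 (r = 0.98), Aarsd1 (r = 0.98), Hacd2 (r = 0.96), Nudt17 (r = 0.96) and Mrto4 (r = 0.96). These are the top values of a search over all genes in 8 libraries, and they are given as a description only.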

How the data were processed

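Total RNA of 8 hippocampal samples (4 labelled DHEA, 4 labelled sesame oil) was sequenced as paired-end mRNA libraries. According to the submitters' processing notes, fastp, HISAT2 and HTSeq were used with the build GRCm39, without versions. The counts deposited by the authors are whole read counts per gene, and the deposited FPKM values are those counts divided by library total and gene length (25234 of 25234 genes checked, equal within 0.1%). Strand use in counting and the annotation are not given in the sources used here, so that genes overlapped on the other strand (Mt2, Slc30a1, Slc30a3, Slc30a10 and Slc39a8 among the 10) are uncertain, as are Slc39a8 and Slc39a10, which overlap genes on the same strand. Slc39a12, Slc39a14, Mt1 and Mt3 overlap no gene in GENCODE vM21, which may not be the annotation used for counting. For Slc39a14 and Mt1 the deposited FPKM implies more bases than their longest GENCODE transcripts. Overlap of their counted features is therefore not excluded.

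Counts were fitted across 27612 genes with at least 1 count in edgeR 4.0.16 (TMM, quasi-likelihood test, Benjamini-Hochberg adjustment) under R 4.3.3, on all 8 libraries with group as the only term. Standard errors are the absolute log2 fold change divided by the square root of F. DESeq2 1.42.0, limma 3.58.1 on log2(FPKM + 1) and log2(FPKM + 0.1), other filters and normalizations, and leaving out each library were alternatives. The tests were also run on simulated counts with known changes, in which edgeR's calls held more unchanged genes than the nominal rate. The p-values measure the spread between the deposited samples, and the labels do not state that each is a separate animal beyond a number in the title. No replicate pair agreed within sampling noise (chi-square per degree of freedom from 7.93 to 57.1). Replicate numbers here are in accession order and pair no samples.

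The 10 genes and the gene lists were chosen with earlier results of these data known. Genes named are the 10, the other zinc genes of the lists, the most abundant marker of a list, and the 5 most like Slc39a12 and Mt1 by within-group correlation, besides 3 markers (Slco1a4, Ly6c1 and Pdk4) that were named after their values were seen. Promoter sequences, with coordinates of GRCm38.p6, are from RefSeq (9 of 10 genes matched) and transcript lengths from GENCODE vM21, also GRCm38. No coordinate was converted between builds. Proteins were not analysed here.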

Additional observations from a re-analysis of the deposited data

Results flagged for a closer look

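The mean log2 CPM of the corticosteroid-induced list stood apart in DHEA replicate 4, at 5.33 against 4.44 to 4.52 in the other 3 libraries labelled DHEA, a gap of 0.905 of the range of the group, above Dixon's limit for 4 samples. In the same library Slc30a3 was 46.9 CPM and Slc39a14 40.9 CPM, the highest of all 8 libraries for both genes, and Slc30a1 was 40.4 CPM, the lowest of the DHEA libraries. Of 44 groups of values examined this was the 1 that stood apart, where chance gives about 2.2. None of the 10 zinc genes had such a library in either group.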

How the results depend on the processing

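The log2 fold changes of Slc39a12, Slc30a3, Slc30a10, Mt2 and Mt3 kept their sign under all 16 alternatives each. The sign turned for Slc39a8 under 3 of 16 alternatives, Slc39a10 under 1, Slc39a14 under 5, Slc30a1 under 1 and Mt1 under 1. Added after seeing the data were a fit of the 6 libraries of the first run of sample numbers, the log2 fold change relative to the astrocyte list, under which Slc39a12 fell to 0.26, and the level by principal transcript length. Across the table, 0 genes passed the adjusted threshold with edgeR (2571 at an unadjusted p under 0.05), 153 with DESeq2 and 38 with edgeR in the 6 libraries of the first run. When single libraries were left out the count ran from 0 to 93, with 93 without DHEA replicate 3 and 12 without DHEA replicate 4; the cause was not tested. The other zinc genes with an unadjusted p under 0.05 were 2 with all libraries and 2 to 4 with 1 left out, with 4 without DHEA replicate 3. None of the 22 passed an adjusted threshold under any alternative. For Slc39a2 the log2 fold change ran from -1.02 to -0.58 with 1 library left out, the latter without DHEA replicate 1, and was -1.06 in the first run. No paired analysis was possible because the labels give no shared replicate numbers. Low counts limit Slc39a8 (156 to 254 counts), and 4 libraries per group limit all correlations.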
